A study of Rattus norvegicus with 17 samples.

Results

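The places bound by Brg1 were compared with the places bound by Olig2 in immature oligodendrocytes (iOL), using the 2 peak lists that chromatin immunoprecipitation with sequencing (ChIP-seq) gave for these factors at that stage. All 5465 Brg1 peaks and all 25787 Olig2 peaks were used, 31252 of the 189320 peaks in the 17 lists of the series. The series mapped Brg1, Olig2, RNA polymerase II (RNAPII) and 3 histone marks in cultured rat cells at up to 3 stages of the oligodendrocyte lineage: precursors (OPC), iOL and mature oligodendrocytes (mOL). Each target and stage had 1 library, so nothing below is checked by replicates and p-values are not given. Ranges after percentages are exact Clopper-Pearson 95% intervals, which cover counting error only and take each peak as independent.

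The iOL were wild-type primary cells of the Sprague-Dawley strain, isolated from pup cortices at postnatal day 2. The iOL samples carry the label of treatment with T3, a thyroid hormone that drives oligodendrocyte differentiation. Per the labels' protocols the cells were grown with 10 ng/ml PDGF-AA plus 20 ng/ml bFGF and differentiated with T3 at 15 nM plus 10 ng/ml of ciliary neurotrophic factor (CNTF). The Brg1 antibody was a gift of J. Wu, and the Olig2 antibody was Millipore Ab9610. The same labels apply to the iOL lists of H3K27Ac, H3K4me3, H3K9me3 and RNAPII that were used to class the peaks. The sources used here do not give how many animals or cultures went into a library, nor the time in culture. Gene positions on the build of the lists, rn4, were not at hand, so the stage label was not checked against marker genes and regions are named by position alone.

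Oligodendrocytes are the glial cells that wrap axons of the central nervous system in myelin. Olig2 is a basic helix-loop-helix transcription factor that specifies this lineage and binds short DNA motifs called E-boxes. Brg1, encoded by Smarca4, is the ATPase subunit of BAF, a chromatin remodelling complex that moves nucleosomes and has no strong sequence preference of its own. H3K27Ac marks active enhancers and promoters, H3K4me3 marks promoters, H3K9me3 marks silenced chromatin, and RNAPII transcribes genes.

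The first question was how Brg1 and Olig2 peaks lay on one another. Olig2 was present at 4026 of the 5465 Brg1 peaks (73.7%, 72.5 to 74.8), while Brg1 was present at 4100 of the 25787 Olig2 peaks (15.9%, 15.5 to 16.4); overlap meant at least 1 bp in common. These shared places formed 4118 overlapping pairs. Most were simple, with 3902 pairs made of 1 Brg1 peak and 1 Olig2 peak that met nothing else of the other factor. A further 92 Brg1 peaks each held 2 Olig2 peaks, and these were wide, with a median of 1697 bp against 986 bp over all Brg1 peaks. The reverse arrangement, an Olig2 peak under 2 Brg1 peaks, occurred 18 times.

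The centres of the peaks lay close together. Over the 4118 pairs the median distance between the centre of the Brg1 peak and that of the Olig2 peak was 110.5 bp, with quartiles of 49 and 206.5 bp. The centres were within 50 bp of each other in 25.9% of pairs, within 100 bp in 46.5%, within 200 bp in 73.7% and within 500 bp in 95.6%. Neither side of the Brg1 centre was preferred along the chromosome, as the median signed offset was 3.75 bp. The median distance was thus short beside the median widths of the lists, 986 bp for Brg1 and 720 bp for Olig2. Without summits in the lists, the midpoint of each peak stood for its centre.

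**Figure D1:**
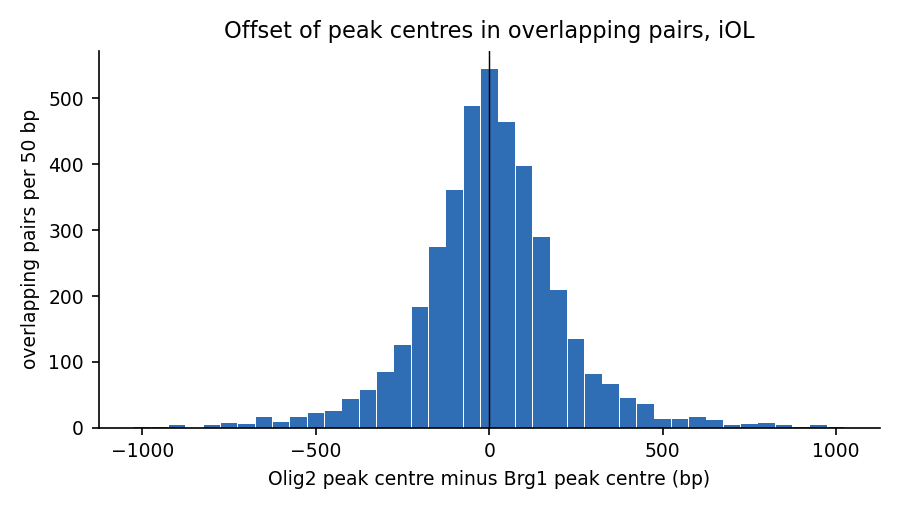
Offset of peak centres in the overlapping pairs of iOL, as Olig2 centre minus Brg1 centre in bp (x axis) against the number of pairs per 50 bp (y axis). The pairs gather evenly around 0, with a median signed offset of 3.75 bp, and the few pairs with larger offsets than the axis shows, up to 1651.5 bp, are not drawn.

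The Brg1 peak was usually the longer of the pair and tended to contain the Olig2 peak. It was the wider in 3017 of 4118 pairs (73.3%, 71.9 to 74.6). The Olig2 peak lay wholly inside the Brg1 peak in 1862 pairs (45.2%, 43.7 to 46.8), and the reverse was seen in 442 pairs (10.7%, 9.80 to 11.7). Each centre fell inside the other factor's peak in 3789 pairs (92.0%, 91.1 to 92.8). Only 72 pairs (1.75%, 1.37 to 2.20) touched at their flanks, with neither centre inside the other peak. At the median the shared stretch made up 97.7% of the Olig2 peak and 75.7% of the Brg1 peak.

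The distance between centres varied with the kind of site and with peak width. Pairs whose Brg1 peak met no mark had a median of 94 bp (n = 1733), those with H3K27Ac but not H3K4me3 had 121.5 bp (n = 2267), and those with H3K4me3 had 202.5 bp (n = 117). By quartile of Brg1 width, from the narrowest, the medians were 86.3, 90.5, 105 and 161 bp. A wide peak leaves more room for an offset, and the median Brg1 width at shared sites was 904, 1214 and 1142.5 bp in these classes; the part of width in their order was not tested. Brg1 peaks that held 2 Olig2 peaks were the farthest off-centre, with a median of 466.75 bp over their 184 pairs, against 105 bp in the simple pairs. Such an offset follows from the arrangement, because 2 separate Olig2 peaks cannot both lie at the centre of 1 Brg1 peak. These Brg1 peaks were also wide, with a median of 1697 bp. Whether the Brg1 peak was also called in mOL made little difference, with medians of 113 and 107 bp for sites that were and were not.

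In 230 pairs the centres lay within 10 bp, and in 4 of these they coincided. Of these close pairs the 3 with the largest summed width were enhancer-type sites, a term used here for peaks that met H3K27Ac and not H3K4me3 in iOL. On chromosome 2 a Brg1 peak from 82744356 to 82746687 and an Olig2 peak from 82744885 to 82746146 had centres 6 bp apart. On chromosome 8 a Brg1 peak from 69212840 to 69215297 and an Olig2 peak from 69213523 to 69214632 had centres 9 bp apart. On chromosome 15 a Brg1 peak from 22307678 to 22309557 lay over an Olig2 peak from 22307791 to 22309438, with centres 3 bp apart. All 3 places were also called for Olig2 in OPC and for Brg1 in mOL.

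At the other extreme, the widest shared Brg1 peak with H3K4me3 held its Olig2 peak at one end. This Brg1 peak ran from 10162055 to 10167006 on chromosome 8 (4952 bp), and the Olig2 peak from 10161940 to 10163818, with the centres 1651.5 bp apart, the maximum over all pairs. The widest Brg1 peak of the list, 5447 bp from 173743078 to 173748524 on chromosome 1, was enhancer-type and held 2 Olig2 peaks. It was called for Brg1 at all 3 stages and for Olig2 at all 3 stages. The widest shared Brg1 peak without a mark in iOL ran from 218142666 to 218145485 on chromosome 1 (2820 bp) and also held 2 Olig2 peaks. H3K27Ac was called there in OPC and in mOL.

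Sharing followed peak width in both lists. Of the narrowest 10% of Brg1 peaks (298 to 658 bp), 45.4% (41.2 to 49.7) met Olig2, against 92.0% of the widest 10% (1631 to 5447 bp). Of the narrowest 10% of Olig2 peaks (221 to 467 bp), 5.54% met Brg1, against 35.9% of the widest 10% (1128 to 3642 bp). A wider peak meets more by its length alone and the lists hold no peak height, so width and strength of binding cannot be told apart. When only the middle 200 bp of every peak was used, 55.4% of Brg1 peaks still met Olig2. Some of the comparisons below are therefore also given within quartiles of width. Others that width could carry were not split in this way.

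**Figure D2:**
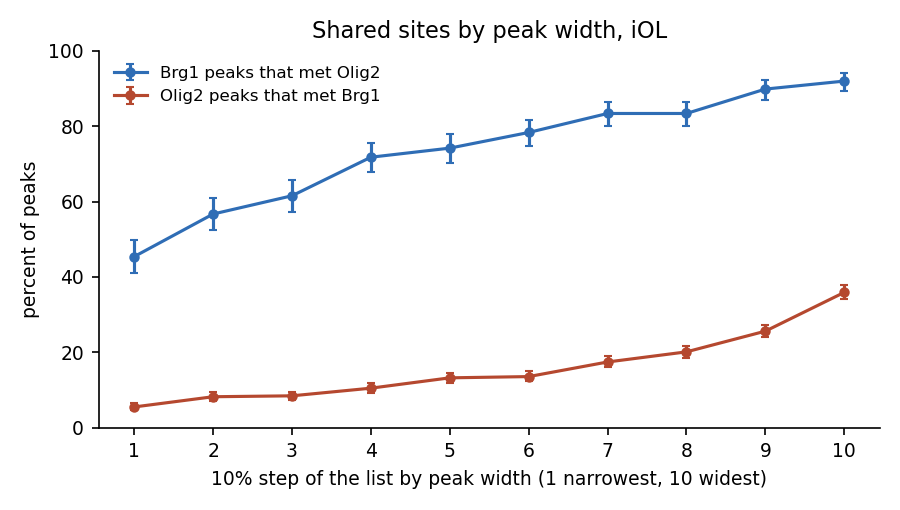
Percent of iOL Brg1 peaks that met Olig2, and of iOL Olig2 peaks that met Brg1 (y axis), in steps of 10% of each list from the narrowest to the widest peaks (x axis). Points are shares and bars are exact 95% counting intervals; both lines climb, from 45.4 to 92.0% for Brg1 and from 5.54 to 35.9% for Olig2.

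The second question was whether Olig2 sites with Brg1 had more Olig2 binding around them. Within 10 kb on either side, measured between centres, Olig2 sites with Brg1 had a mean of 0.466 other Olig2 peaks (n = 4100) and sites without Brg1 had 0.413 (n = 21687), a ratio of 1.13. At least 1 neighbour was present at 1456 sites with Brg1 (35.5%, 34.0 to 37.0) and at 6906 sites without (31.8%, 31.2 to 32.5). Both medians were 0 and both maxima 5. In the set with Brg1, 2644 sites had no neighbour, 1092 had 1, 286 had 2, and 78 had 3 or more. In the set without Brg1, 14781 had none, 5233 had 1, 1356 had 2, and 317 had 3 or more.

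This small excess shrank once pairs of Olig2 peaks under the same Brg1 peak were set aside. By its design this step lowers only the mean at sites with Brg1, so it cannot decide whether the excess holds. Olig2 peaks that lay as close together without Brg1 were all kept. Each of the 92 Brg1 peaks that held 2 Olig2 peaks made those 2 count as neighbours of one another, and such counts were 184 of the 1912 neighbours (9.62%). Without them the mean at sites with Brg1 was 0.421 against 0.413, a ratio of 1.02, and 33.0% had at least 1 neighbour against 31.8%. Within 5 kb the ratio went from 1.17 to 0.951 by the same step. Within 50 kb, with all neighbours counted, the means were 2.03 and 1.91.

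Within the enhancer-type and unmarked classes the mean number of Olig2 neighbours was lower at sites with Brg1 than at sites without, the opposite of the pooled ratio. Enhancer-type Olig2 sites had a mean of 0.585 neighbours with Brg1 (n = 2244) and 0.642 without (n = 4123), a ratio of 0.911. Unmarked sites had 0.304 with Brg1 (n = 1746) and 0.357 without (n = 16944), a ratio of 0.850. With all neighbours counted the gap was small at enhancer-type sites, where 43.9% (41.8 to 45.9) with Brg1 and 45.6% (44.1 to 47.2) without had at least 1 neighbour. Leaving out neighbours under the same Brg1 peak, which can only lower the share with Brg1, made that share 40.6% (38.5 to 42.6). With all neighbours counted, the gap was not present in the narrowest quartile of Olig2 width. From that quartile to the widest, the ratios were 1.00, 0.957, 0.947 and 0.867 at enhancer-type sites and 1.00, 0.9503, 0.682 and 0.755 at unmarked ones. These ratios by class and width were not computed with neighbours under the same Brg1 peak left out. Of the 3 classes, only in the small H3K4me3 class was the mean higher with Brg1, 0.633 (n = 109) against 0.410 (n = 615). Enhancer-type sites were the more crowded and made up more of the set with Brg1. By quartile of Olig2 width the ratios were 1.26, 1.14, 1.01 and 0.971 from the narrowest to the widest, and with neighbours under the same Brg1 peak left out they were 1.02, 0.972, 0.933 and 0.903.

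**Figure D3:**
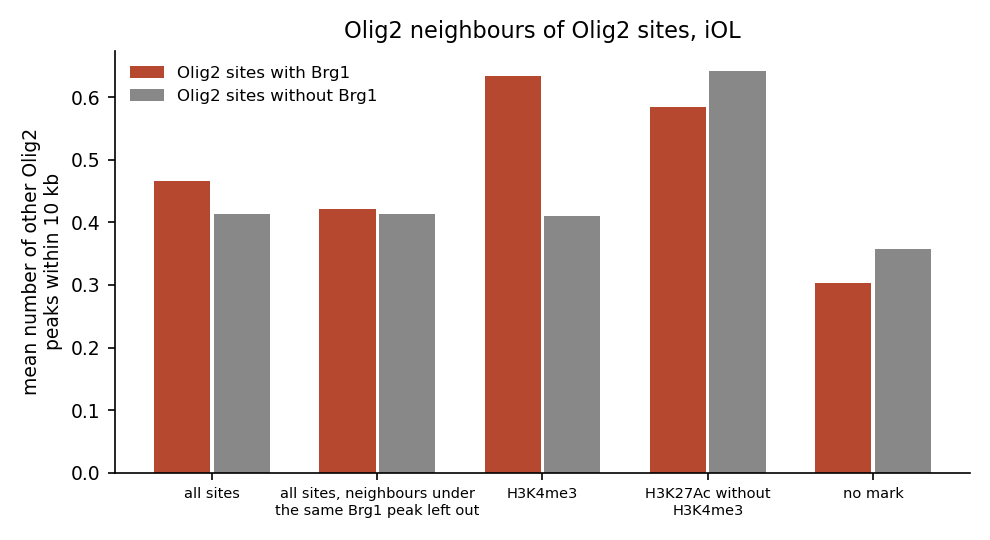
Other Olig2 peaks within 10 kb of iOL Olig2 sites with and without Brg1, as the mean number per site (y axis) for all sites, for all sites with neighbours under the same Brg1 peak left out, and for each mark class. The sets differ little over all sites, 0.466 against 0.413 on average, and the order of the means turns within the enhancer-type and unmarked classes.

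Olig2 neighbours of a shared site were themselves more often shared. Of the neighbours of sites with Brg1, 414 of 1728 held Brg1 (24.0%, 22.0 to 26.0) with those under the same Brg1 peak left out, and 598 of 1912 (31.3%) with them included. Of the neighbours of sites without Brg1, 1314 of 8954 held it (14.7%, 13.9 to 15.4). A neighbour can count for several sites, so these intervals are too narrow. No split by width was made here, and the part of width was not tested. When Olig2 peaks were joined into clusters across gaps of up to 10 kb, 20679 clusters resulted, of which 3771 had at least 2 Olig2 peaks. The share of Olig2 peaks with Brg1 was 15.1% in clusters of 1 peak, 17.0% in those of 2, 17.7% in those of 3, 17.0% in those of 4 and 21.6% in those of 5 or more. Larger clusters also have more peaks that could be shared, and they held a shared site more often, 62.4% of those with 5 or more Olig2 peaks against 15.1% of single peaks.

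The cluster with the most Brg1 peaks spanned 213978978 to 214004814 on chromosome 2, with 5 Olig2 and 5 Brg1 peaks over 25837 bp. Of its Brg1 peaks, 3 lay on Olig2 peaks, and the other 2 (213985052 to 213986395 and 213998102 to 213998983) lay in the gaps between them. H3K27Ac without H3K4me3 was present at all 5 Olig2 peaks and at 4 of the 5 Brg1 peaks. A cluster on chromosome 18 from 50398846 to 50417775 held 6 Olig2 and 4 Brg1 peaks, and all 4 Brg1 peaks met Olig2 and H3K4me3. There 1 Brg1 peak of 2311 bp (50406345 to 50408655) began just past the end of a Brg1 peak of 3337 bp and reached into an Olig2 peak of 404 bp. The third, on chromosome 1 from 219663057 to 219677856, held 3 Olig2 peaks, each with a Brg1 peak on it, and a further Brg1 peak without Olig2 from 219675386 to 219676038. RNAPII was called in none of the 3 clusters.

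Single Olig2 peaks that did not meet Brg1 could also lie among many others. Whether those others met Brg1 was not looked at for the examples below. Olig2 peaks without Brg1 had up to 5 others within 10 kb, for example at 178858766 to 178859719 on chromosome 2, 75185048 to 75185891 on chromosome 13 and 40266382 to 40267045 on chromosome 1. None of these 3 peaks met an Olig2 peak of OPC or mOL. The widest Olig2 peak of the list, 3642 bp from 33156625 to 33160266 on chromosome 15, met H3K4me3 and no Brg1. The next widest without Brg1 lay at 156958729 to 156961916 on chromosome 3, an enhancer-type site, and at 31172050 to 31174749 on chromosome 11, with H3K4me3.

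The third question was how far Brg1 peaks without Olig2 lay from the nearest Olig2 peak. The 1439 such peaks had a median distance of 21.3 kb between nearest edges, with quartiles of 6.97 and 51.7 kb and a range from 3 bp to 1874.9 kb. Olig2 lay within 1 kb of 94 of them (6.53%) and within 10 kb of 453 (31.5%, 29.1 to 34.0). It lay more than 100 kb away from 175. These distances depended on which peaks were used and which counted as meeting. With only the middle 200 bp of each peak used, the set without Olig2 takes in Brg1 peaks whose flanks overlap Olig2, the median was 4.10 kb and 58.9% lay within 10 kb. With the wider 50% of each list, which also leaves fewer Olig2 peaks to lie near, the median was 34.9 kb and 22.3% lay within 10 kb.

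Olig2-free Brg1 peaks were nevertheless nearer to Olig2 than placed sequence at large. Of all windows of 812 bp (the median width of these Brg1 peaks) that met no Olig2 peak, 1.82% lay within 1 kb of one, 15.3% within 10 kb and 47.4% within 50 kb, against 6.53, 31.5 and 74.1% of the Olig2-free Brg1 peaks. Olig2 peaks lay about as near to one another. From an Olig2 peak without Brg1 to the nearest other Olig2 peak the median was 19.1 kb, and 33.8% had one within 10 kb. From a Brg1 peak with Olig2 to the next Olig2 peak it did not meet, the median was 17.7 kb, and 35.7% had one within 10 kb. The placed sequence includes stretches in which no peak could be called, and their part in the difference was not tested.

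**Figure D4:**
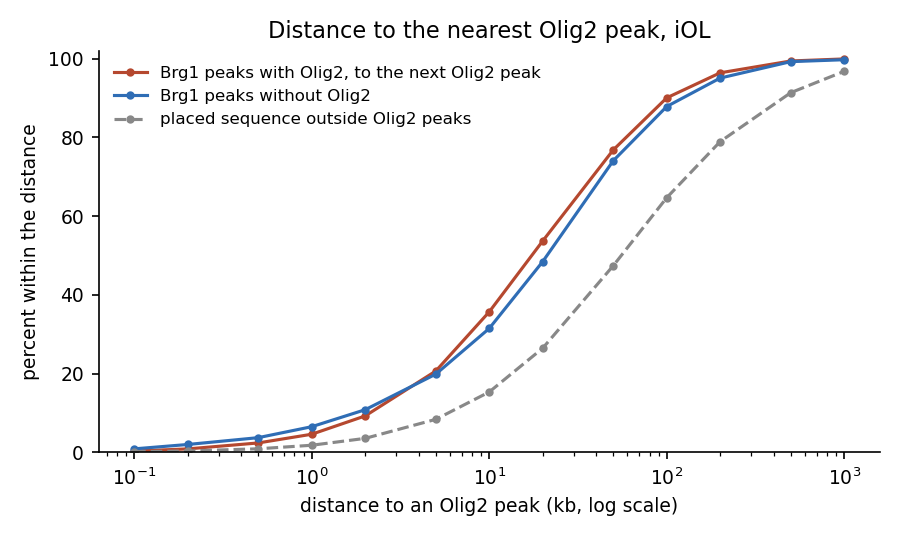
Cumulative percent (y axis) lying within a given distance of the nearest Olig2 peak (x axis, kb, log scale) for Olig2-free Brg1 peaks, for Brg1 peaks with Olig2 to the next Olig2 peak, and for placed sequence outside Olig2 peaks. At 10 kb the Olig2-free Brg1 peaks stand at 31.5% and placed sequence at 15.3%, and the curves of both Brg1 sets run near each other.

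The kind of chromatin at a Brg1 peak differed with its distance from Olig2. Enhancer-type sites made up 54.5% of Brg1 peaks that met Olig2, 44.7% (34.4 to 55.3) of the 94 within 1 kb, 22.6% (18.3 to 27.2) of the 359 from 1 to 10 kb, 17.3% (14.4 to 20.5) of the 613 from 10 to 50 kb and 11.8% (8.70 to 15.5) of the 373 beyond. The 94 peaks within 1 kb therefore resembled shared sites in enhancer-type share more than the other Olig2-free peaks did. Unmarked peaks went the other way, from 42.6% of shared sites to 81.8% beyond 50 kb. Width moved with the distance as well: the median Brg1 width was 1061 bp at shared sites and 889, 865, 809 and 767 bp in the following bins, and its part in these shares was not tested beyond the quartiles given next.

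H3K4me3 took a different course from the enhancer-type share. It was present at 114 of 4026 Brg1 peaks with Olig2 (2.83%, 2.34 to 3.39) and at 129 of 1439 without (8.96%, 7.54 to 10.6), and in each of the 4 bins of distance without Olig2 its share lay between 6.43 and 10.6%. The Olig2-free peaks were narrower, yet the order held within every quartile of Brg1 width. From the narrowest quartile to the widest, H3K4me3 was at 2.07, 2.17, 3.07 and 3.59% of Brg1 peaks with Olig2 and at 4.40, 9.20, 12.9 and 21.4% of those without. The enhancer-type share had the opposite order in every quartile, with 26.6, 41.6, 56.4 and 79.4% where Olig2 was present and 8.79, 20.9, 28.6 and 41.4% where it was not. Read by class, Olig2 was at 88.9% of the 2467 enhancer-type Brg1 peaks, at 62.3% of the 2754 unmarked ones and at 46.9% of the 243 with H3K4me3. Most Brg1 peaks with H3K4me3 also met H3K27Ac, 107 of the 114 with Olig2 and 114 of the 129 without. H3K27Ac with or without H3K4me3 was at 57.2% of Brg1 peaks with Olig2 and 26.9% of those without.

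When Olig2 peaks were split by Brg1, the enhancer-type share had the same order, while H3K4me3 had no single order. Enhancer-type sites were 2244 of 4100 Olig2 peaks with Brg1 (54.7%, 53.2 to 56.3) and 4123 of 21687 without (19.0%, 18.5 to 19.5). From the narrowest quartile of Olig2 width to the widest, they were 31.1, 42.4, 48.5 and 68.8% with Brg1 and 7.01, 12.9, 20.9 and 40.0% without. H3K4me3 was at 109 with Brg1 (2.66%, 2.19 to 3.20) and 615 without (2.84%, 2.62 to 3.07). These pooled shares hid opposite orders by width. In the widest quartile of Olig2 peaks H3K4me3 was at 3.05% (2.32 to 3.93) with Brg1 and 5.33% (4.69 to 6.01) without, and in the narrowest at 3.31% (1.86 to 5.40) and 1.73% (1.41 to 2.09). By class, Brg1 was present at 35.2% of enhancer-type Olig2 peaks, 15.1% of those with H3K4me3 and 9.34% of unmarked ones. H3K9me3 without the other marks was met by 1 Brg1 peak with Olig2 and by none of the 1439 without, and 3 counts among the latter would have been 0.208%. The iOL H3K9me3 list is short, with 827 peaks over 0.639 Mb of 2716.5 Mb of placed sequence. Few overlaps could therefore occur at any set of peaks, and whether these were fewer than at sequence at large was not tested.

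RNAPII was rarely called at these peaks. The iOL RNAPII list is itself short, with 1425 peaks over 1.59 Mb, so few overlaps could occur at any set of peaks. Whether they were fewer than at sequence at large was not tested. RNAPII was at 56 Brg1 peaks with Olig2 (1.39%, 1.05 to 1.80) and at 13 without (0.903%, 0.482 to 1.54), intervals that overlapped. What differed was the kind of site. With Olig2, 48 of the 56 were enhancer-type (85.7%, 73.8 to 93.6), 6 had H3K4me3 and 2 had no mark. Without Olig2, 12 of the 13 had H3K4me3 (92.3%, 64.0 to 99.8) and 1 was enhancer-type. The 56 and the 13 Brg1 peaks lay on as many separate RNAPII peaks.

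Counted from the sites, RNAPII was at 48 of 2194 enhancer-type Brg1 peaks with Olig2 (2.19%, 1.62 to 2.89) and at 1 of 273 without (0.366%, 0.00927 to 2.02). At Brg1 peaks with H3K4me3 it was at 6 of 114 with Olig2 (5.26%, 1.96 to 11.1) and at 12 of 129 without (9.30%, 4.90 to 15.7). Olig2 was thus at 48 of the 49 enhancer-type Brg1 peaks with RNAPII (98.0%, 89.1 to 99.9), beside 88.9% of all enhancer-type Brg1 peaks, and at 6 of the 18 with H3K4me3 and RNAPII (33.3%, 13.3 to 59.0), beside 46.9% of all with H3K4me3. These counts are small, and no test between the sets was made. Width again ran alongside: 33 of the 56 shared Brg1 peaks with RNAPII were in the widest quartile of Brg1 peaks. Among Olig2 peaks, RNAPII was at 57 with Brg1 (1.39%, 1.05 to 1.80) and 166 without (0.765%, 0.654 to 0.891). This gap was not present among wide peaks: in the widest quartile of Olig2 peaks RNAPII was at 44 of 1869 with Brg1 (2.35%) and 106 of 4600 without (2.30%). In the other quartiles, from the narrowest, it was at 1 of 453, 1 of 736 and 11 of 1042 with Brg1, and at 10 of 5952, 16 of 5750 and 34 of 5385 without. Of the 57 Olig2 peaks with both Brg1 and RNAPII, 84.2% were enhancer-type and 12.3% had H3K4me3, against 51.2% and 44.0% of the 166 without Brg1. Enhancer-type sites were also 54.7% of all Olig2 peaks with Brg1 and 19.0% of those without. Counted from enhancer-type Olig2 sites, RNAPII was about as frequent, at 48 of 2244 with Brg1 (2.14%) and 85 of 4123 without (2.06%). At Olig2 sites with H3K4me3 it was at 7 of 109 (6.42%, 2.62 to 12.8) and 73 of 615 (11.9%, 9.42 to 14.7).

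**Figure D5:**
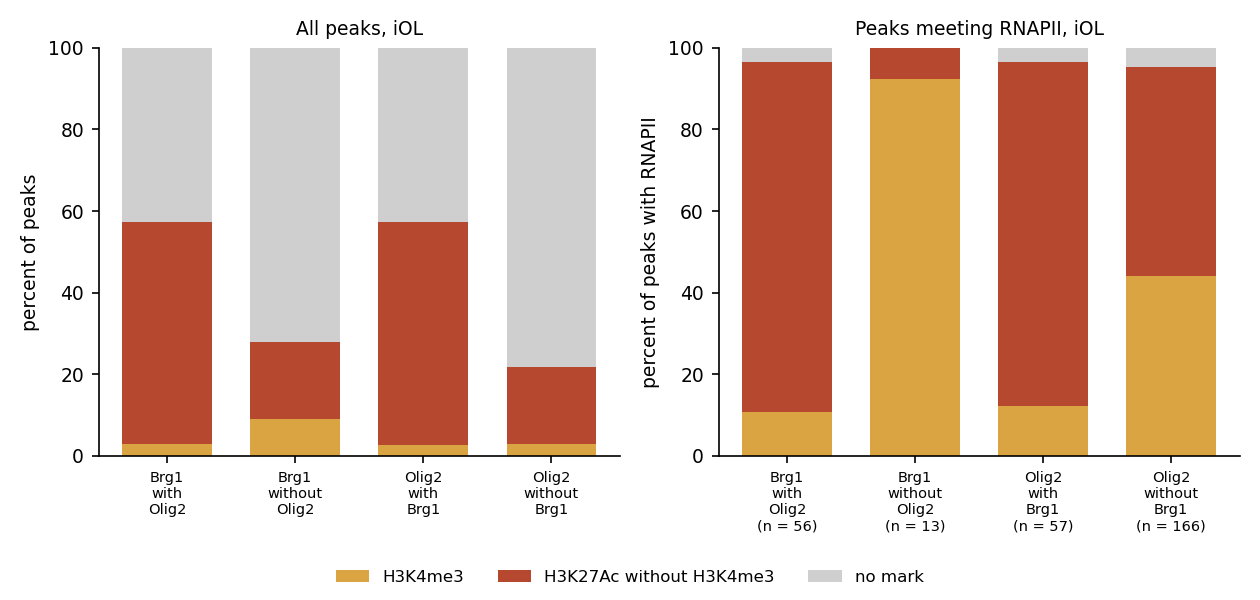
Mark classes of Brg1 peaks with and without Olig2 and of Olig2 peaks with and without Brg1 in iOL, as percent of all peaks (left) and of the peaks that met RNAPII (right, with their number under each bar). H3K27Ac without H3K4me3 takes 54.5 and 54.7% of the shared sets and 19.0% of each unshared set, and H3K4me3 takes 92.3% of the 13 Olig2-free Brg1 peaks with RNAPII; the class of H3K9me3 alone, at most 5 peaks in a set, is not drawn.

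The 3 widest shared Brg1 peaks with RNAPII were enhancer-type in iOL. They lay at 22274118 to 22277132 on chromosome 5 (3015 bp, centre 358.5 bp from that of Olig2), 30602509 to 30605452 on chromosome 19 (2944 bp, with 2 Olig2 peaks) and 89678658 to 89681571 on chromosome 15 (2914 bp, centre 143 bp from that of Olig2). Brg1 was called at all 3 in mOL, and H3K4me3 was called in mOL at those on chromosomes 5 and 15. The widest Olig2-free Brg1 peaks lay at 77346383 to 77349472 on chromosome 2, with Olig2 9.74 kb away, at 111255557 to 111258586 on chromosome 3, with H3K4me3 and Olig2 86.1 kb away, and at 106944983 to 106947977 on chromosome 2, with Olig2 13.7 kb away. The Brg1 peaks farthest from Olig2 were narrow and unmarked in iOL. They lay at 91457740 to 91458389 on chromosome 2 (1874.9 kb), 53710504 to 53711008 on chromosome 14 (1672.2 kb) and 92241124 to 92241701 on chromosome 2 (1091.6 kb). The first and the second were Olig2 peaks in OPC.

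Shared sites of iOL were for the most part Olig2 sites in OPC already. An OPC Olig2 peak was present at 90.8% (89.8 to 91.7) of Brg1 peaks with Olig2, at 32.8% (30.4 to 35.3) of Brg1 peaks without, and at 55.8% of Olig2 peaks without Brg1. The OPC Olig2 list has wide peaks, with a median of 1312 bp over 30.2 Mb against 19.8 Mb in iOL, and these meet more by their length; how much of the shares this gives was not tested. Brg1 was called in mOL at 47.0% (45.5 to 48.6) of iOL Brg1 peaks with Olig2, against 19.4% (17.4 to 21.5) of Olig2-free ones. Olig2 was called in mOL at 27.4% of the former and at 5 of the 1439 latter. The former were also wider, with a median of 1061 bp against 812 bp, and the part of width was not tested. At no stage was Olig2 called at 967 of the 1439 (67.2%), and 11.4% of these 967 met H3K4me3, 16.4% were enhancer-type and 72.2% were unmarked.

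Unmarked shared sites were the second largest class, with 1717 Brg1 peaks. They lay far from acetylation, at a median of 73.5 kb from the nearest iOL H3K27Ac peak, against 48.4 kb for unmarked Brg1 peaks without Olig2. H3K27Ac of OPC or mOL was nonetheless called at 682 of them (39.7%, 37.4 to 42.1) and at 299 of the 1037 unmarked Brg1 peaks without Olig2 (28.8%, 26.1 to 31.7). Among unmarked Olig2 peaks without Brg1 it was called at 15.3%. The median widths of these sets, in the order given, were 904, 759 and 662 bp, and the part of width in the shares was not tested. Some sites without a mark in the iOL lists were thus marked in the list of another stage, and the depth of each library is unknown.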

How the data were processed

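The Brg1 and Olig2 peak lists of iOL were compared with one another and with the iOL lists of H3K27Ac, H3K4me3, H3K9me3 and RNAPII. Per line, the deposited files hold 3 columns that give the chromosome and both ends in bp of 1 of the authors' peaks, with no read number, height or p-value. The submitters' processing notes name MACS 1.4.0 and rn4. The aligner, peak threshold and control library were not given in the sources used here. Without read numbers the depth is unknown, and a deeper library or looser threshold gives a longer list. Groups came from sample titles.

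Starts were made 1-based by adding 1. Overlap meant at least 1 bp, neighbours were counted between midpoints within 10 kb leaving out the site itself, and nearest distances ran between edges. Peaks were classed first by H3K4me3, then by H3K27Ac, then by H3K9me3, with the rest called unmarked. The members, lists and comparisons were chosen with earlier results of these data known. Named regions were those with the most peaks, the widest, the farthest or the closest centres in each set, and are only a description. Alternatives were another overlap rule, placed chromosomes, merged peaks, wider peaks, the middle 200 bp, other windows and other marks. Leaving out neighbours under the same Brg1 peak, the split of neighbours by mark class, and the H3K4me3 shares were added after seeing the data. Counts and distances were recovered in 13 of 13 checks, some on simulated lists and the others on the real lists against bedtools 2.31.1. Of the latter, 6 compared overlaps. Python 3.11.15, numpy 2.4.6, scipy 1.17.1 and matplotlib 3.10.9 were used. No sequence is printed, as no rn4 genome was used here.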

Additional observations from a re-analysis of the deposited data

Results flagged for a closer look

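The neighbour ratio lay on opposite sides of 1 in iOL and mOL, each with 1 library per factor. Olig2 sites with Brg1 had 1.13 times the mean number of other Olig2 peaks within 10 kb in iOL and 0.498 times in mOL. The difference between the stages was not tested. The mOL means were 0.0361 over 941 sites with Brg1 and 0.0726 over 1818 without, and they rest on 34 and 132 neighbours from a list of 2759 Olig2 peaks. The share of mOL sites with at least 1 neighbour differed less than the means, at 3.61% with Brg1 and 4.35% without. In OPC the ratio was 1.59 over 456 sites with Brg1. With neighbours under the same Brg1 peak left out the ratios were 1.26 in OPC, 1.02 in iOL and 0.498 in mOL.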

How the results depend on the processing

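Of 112 recomputed values over 16 results, 60 stayed within the counting interval or, for the neighbour ratio, within 0.005. Those 60 include every value with touching peaks merged, which could not change because neither factor list holds touching peaks. They also include every value on placed chromosomes only, which left out just 2 Brg1 and 86 Olig2 peaks and could hardly change. Of the rest, 46 moved and 6 turned direction. All 6 were of the neighbour ratio (1.13): 0.910 with only neighbours without Brg1 counted, 0.971 in the widest quartile of Olig2 peaks, 0.911 at enhancer-type sites, 0.850 at unmarked sites, and 0.814 and 0.785 at these with neighbours under the same Brg1 peak left out. It was 1.02 with those left out over all sites, 1.54 and 1.46 at H3K4me3 sites with and without them, 1.26, 1.14 and 1.01 in the other width quartiles, 1.17 within 5 kb, 1.07 within 50 kb, 1.11 with 50% overlap and 1.23 with peaks within 1000 bp counted as meeting. That last rule gave 75.4% of Brg1 and 16.7% of Olig2 peaks shared, and for Olig2-free Brg1 peaks a median of 23.8 kb with 26.7% within 10 kb. The wider 50% of each list gave 70.3 and 15.1% shared, centres 123.5 bp apart, 34.9 kb and 22.3%, enhancer-type shares of 72.5 and 41.6% for Brg1 with and without Olig2 and 72.5 and 30.5% for Olig2 with and without Brg1, and RNAPII at 2.24% of shared Brg1 peaks and 2.31 and 1.37% of Olig2 peaks with and without Brg1. The middle 200 bp gave 55.4 and 11.7% shared, 4.10 kb and 58.9%, enhancer-type shares of 49.7 and 35.1% for Brg1 and 50.02 and 19.9% for Olig2, and H3K4me3 at 1.75 and 6.53% of Brg1 peaks with and without Olig2. Here the Olig2-free set takes in peaks whose flanks overlap Olig2. Marks of any stage gave enhancer-type shares of 67.6 and 35.8% for Brg1 and 67.7 and 28.7% for Olig2, and H3K4me3 at 7.00 and 14.0%. Marks within 1000 bp gave H3K4me3 at 3.85 and 11.6% and an enhancer-type share of 19.8% for Olig2 without Brg1, and RNAPII within 1000 bp 0.968% of the latter. In all of these the enhancer-type share was higher, and the H3K4me3 share of Brg1 peaks lower, at shared sites. No paired analysis was possible because each factor had 1 library. Depth is unknown, so an absent peak may be one that was not called.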

Other observations

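The Olig2 list is not sorted by position, and its order follows sharing. In steps of 10% from the start of the list to its end, 35.8, 26.6, 21.2, 17.1, 13.3, 12.0, 10.2, 7.29, 7.95 and 7.53% of Olig2 peaks met Brg1. The sources used here do not explain the order. Median width went from 1040 bp in the first 10% to 513 bp in the last.

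Sharing was seen on every placed chromosome. Brg1 peaks with Olig2 ranged from 68.5% on chromosome 3 to 81.7% on chromosome 19, with a median of 74.3% over chromosomes. Olig2 peaks with Brg1 ranged from 9.45% on chromosome 12 to 21.3% on chromosome 11, with a median of 15.9%.

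Set side by side, the median distance between centres of overlapping Brg1 and Olig2 peaks was 132.5 bp in OPC (457 pairs), 110.5 bp in iOL and 91 bp in mOL (957 pairs). H3K4me3 was at 1.39% of Brg1 peaks with Olig2 in OPC and at 4 of the 19 without, and in mOL at 4.28 and 6.40%. The median distance of Olig2-free Brg1 peaks to Olig2 was 19.2 kb in OPC, 21.3 kb in iOL and 213.8 kb in mOL, where the Olig2 list was the shortest. Median widths and numbers of peaks differed between these lists, and no difference between stages was tested.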
